A study of Mus musculus with 8 samples.

Results

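The genes described here are the 3 mammalian Vrk kinases, Vrk1, Vrk2 and Vrk3, and the genes of 3 proteins that VRK1 is known to phosphorylate, Banf1, Coil and Atf2. Every non-control probe that carried one of these names in the array files was taken, whatever its signal. That gave 13 of the 41174 distinct probes on the array, namely 2 for Vrk1, 2 for Vrk2, 1 each for Vrk3, Banf1 and Coil, and 6 for Atf2, and 6 of the 27962 gene names in the files. RNA came from whole testicular cells of mice with genotype VRK1+/+ (wild type) or VRK1-/- (mutant), with 4 samples described as biological replicates in each group and 1 single-colour Agilent array per sample. The labels name no age, strain or litter, nor the Vrk1 allele or the animals behind each sample, so the p-values measure the spread between these samples only. The comparison asked how testis RNA differed when Vrk1 was disrupted.

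VRK1 is a serine/threonine kinase of the nucleus that belongs to the casein kinase 1 group and is needed for fertility in mice. It phosphorylates BAF, the small DNA-binding protein encoded by Banf1, which loosens BAF from DNA and from the LEM-domain proteins of the inner nuclear membrane as the nuclear envelope comes apart in mitosis. It also phosphorylates coilin, the scaffold protein of Cajal bodies that Coil encodes, and the transcription factor ATF2. VRK2 is a membrane-anchored relative that can also phosphorylate BAF, and VRK3 is a pseudokinase with a degenerate catalytic site. The arrays measured RNA, so none of the values below is a level of protein, phosphorylation or kinase activity.

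Of the 13 probes, which are 60 bases long, 6 are printed 5′ to 3′ from the array files: both Vrk1 probes, the Vrk2 probe that overlaps another gene, the Banf1 probe, and 2 of the Atf2 probes. They show which stretch of the transcript was read. Their positions are those of the array files in the mm7 build. The pair of Vrk1 probes lay on the plus strand of chromosome 12, at chr12:103556489-103557469, where 60 bases matched a span of 981 genomic bases, and at chr12:103560461-103560520. The Vrk2 probe lay on the minus strand at chr11:26423729-26423788, the Banf1 probe on the minus strand at chr19:5259878-5259937, and these Atf2 probes on the minus strand at chr2:73689949-73690008 and chr2:73672192-73672251. Capitals mark 59 bases of the Vrk2 probe that are the exact complement of a probe for Fancl, a gene read from the opposite strand. In the other printed probes no stretch was singled out.
Vrk1 A_51_P102339: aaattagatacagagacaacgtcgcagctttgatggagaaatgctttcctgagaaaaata
Vrk1 A_52_P555672: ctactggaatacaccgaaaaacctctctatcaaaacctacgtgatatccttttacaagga
Vrk2 A_52_P200350: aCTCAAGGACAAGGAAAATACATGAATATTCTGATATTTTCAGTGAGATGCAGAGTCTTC
Banf1 A_51_P314019: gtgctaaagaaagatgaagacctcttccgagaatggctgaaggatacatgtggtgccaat
Atf2 A_52_P116253: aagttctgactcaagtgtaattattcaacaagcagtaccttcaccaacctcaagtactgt
Atf2 A_52_P130596: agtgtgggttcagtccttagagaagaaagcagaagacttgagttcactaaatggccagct

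The 75th percentile of the signal, to which every level below is relative, was 680 to 790 on the wild-type and 928 to 1124 on the mutant arrays, and 73.2% to 77.5% and 83.3% to 86.5% of features lay well above background. Each genotype had 1 slide and 1 scan to itself, and an effect of the slide cannot be told apart from one of genotype in these values. Markers of germ cells and of Sertoli cells were measured in both groups, but 2 mutant arrays stood apart. The summed relative level of 4 epididymal markers was 30.1 and 19.2 on mutant replicates 1 and 4, against 1.58 and 1.07 on mutant replicates 2 and 3 and 0.32 to 0.67 in wild type, and results are also given without those 2 arrays. The other 4 markers of that list (Adam7, Defb42, Lcn5 and Lcn8) did not pass the filter on background. Of 12 spermatocyte markers, 6 were lower in the mutant and none higher, and their summed relative level was 284 to 377 against 432 to 488 in wild type. Of 13 Sertoli cell markers, 11 were higher and none lower, with sums of 138 to 211 against 64.3 to 97.6. The part of these shifts in the members' values was not tested. Because the RNA is from mixed cells, fewer cells of a type and less RNA per cell cannot be told apart.

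Of the 13 probes, 10 were well above background on all 8 arrays and were tested, and these covered all 6 genes. The other 3 (Vrk2 A_52_P113749, Atf2 A_52_P379037 and Atf2 A_52_P86665), which match only cDNA clone records in the array files, were not well above background on any array. Among the 10 tested probes, 6 were lower in the mutant and none was higher at a limma adjusted p under 0.05 after Benjamini-Hochberg adjustment over all 33718 tested probes, while 10.8% of all tested probes were lower and 21.2% higher. The lower probes belonged to 5 genes: Vrk1 with both probes, and Vrk2, Vrk3, Coil and Atf2 with 1 each. At an unadjusted p under 0.05, too, no member probe was higher, and 1 was higher only when limma weighted the arrays. In 5 of the 10 the groups did not overlap, which also held for 35.3% of all tested probes. The median log2 difference, mutant minus wild type, was -0.53 over the 10 tested members and 0.05 over all tested probes. Without mutant replicates 1 and 4, the 2 Vrk1 probes were the only members called, where 0.653% of all tested probes were called lower and 3.92% higher. In that fit the log2 differences were -2.29 and -2.01 for Vrk1, -0.39 for Vrk2, -0.43 for Vrk3, -0.08 for Banf1 and -0.33 for Coil. With all arrays those of Vrk2, Vrk3, Banf1 and Coil were larger in size, at -0.53, -0.54, -0.27 and -0.55. For Atf2 the fit gave -0.33 (A_52_P116253), -0.54 (A_52_P130596), 0.33 (A_52_P272547) and 0.11 (A_51_P388872).

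**Figure D1:**
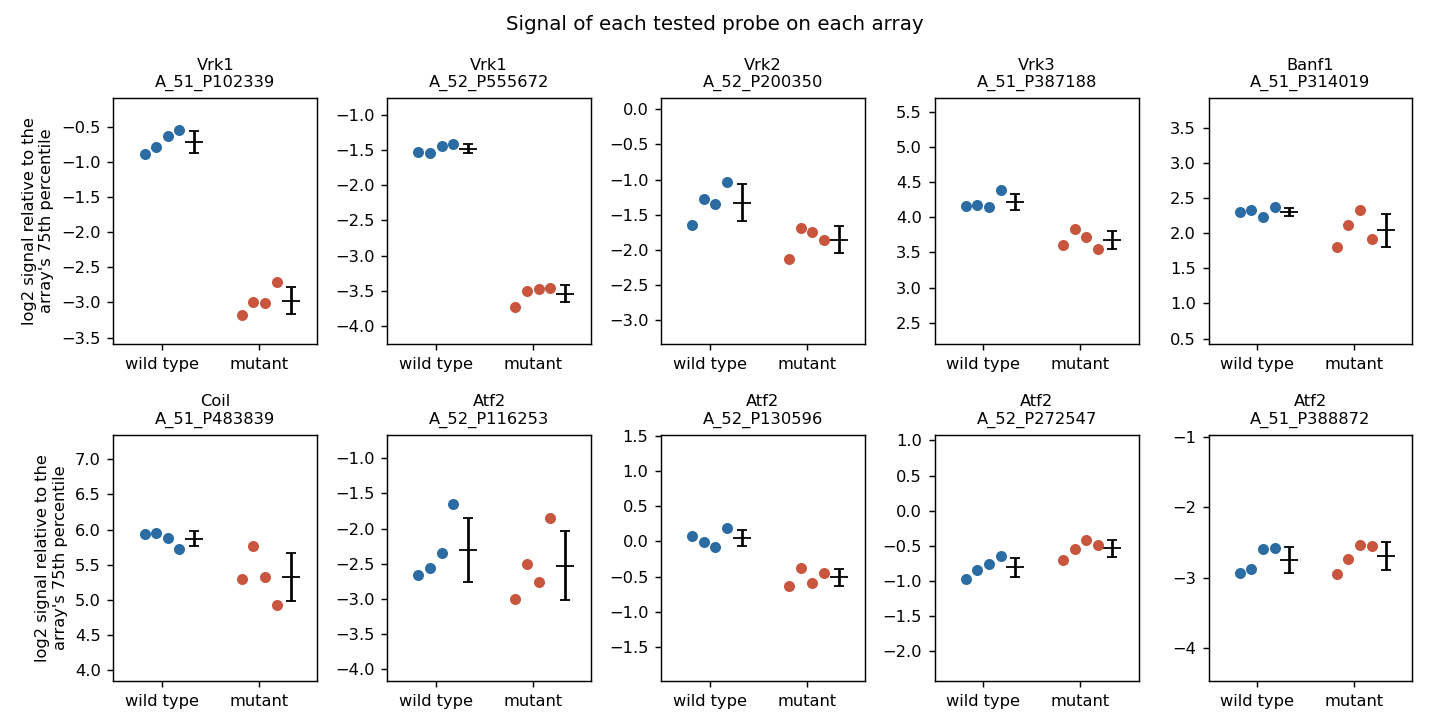
Each panel plots the log2 signal of 1 tested probe, relative to the array's 75th percentile, on the 4 wild-type (blue) and 4 mutant (red) arrays, in order of replicate number, with the mean and SD of each group beside the points; every vertical axis covers the same log2 range. Both Vrk1 probes drop from between -1.54 and -0.54 to between -3.73 and -2.72, whereas the other panels show shifts of less than 1 log2 unit or none.

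The signal of both Vrk1 probes was reduced but remained above background in every mutant sample. With probe A_51_P102339, the log2 level in wild-type replicates 1 to 4 was -0.89, -0.79, -0.63 and -0.54, and in mutant replicates 1 to 4 it was -3.17, -3.00, -3.00 and -2.72. The groups lay far apart, with a gap between them several times the spread within either. The difference was -2.26 (SE 0.15, 95% interval -2.59 to -1.93, limma adjusted p = 1.65e-04), which left 20.9% of the wild-type level (95% interval 16.6% to 26.3%). Only 3 of the 33718 tested probes had a lower difference.

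The second Vrk1 probe, A_52_P555672, lies 2991 bases further along the chromosome. Its wild-type levels were -1.53, -1.54, -1.44 and -1.41, and its mutant levels were -3.73, -3.50, -3.47 and -3.46. Again the groups were widely separate, and mutant replicate 1 lay below the other mutant arrays. The log2 difference was -2.06 (SE 0.12, 95% interval -2.34 to -1.78, limma adjusted p = 1.24e-04), which left 23.97% (95% interval 19.8% to 29.1%).

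The signal that remained in the mutant was well clear of the array's own background. The processed signal of A_51_P102339 was 107 to 171 on the mutant and 367 to 542 on the wild-type arrays, and that of A_52_P555672 was 72.9 to 102 and 235 to 297. On each mutant array the 153 negative control spots had a 95th percentile between 2.08 and 2.69, and 0 of them reached either Vrk1 probe. The labels do not say which part of Vrk1 the allele disrupts, so whether the probes lie before, in or after it was not tested, and this signal does not show whether intact transcript was left. Whether any of it came from RNA other than that of Vrk1 was not tested. The 2 probes fell by amounts that differed by 0.20 log2 units within the array (two-sided exact permutation p = 0.0571 over 70 arrangements; adjusted p = 0.0762 over 12 such contrasts), and the groups overlapped in that contrast.

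The reduction of Vrk1 kept its call under every alternative that was run. Over 12 other ways of processing the signal, A_51_P102339 ranged from -2.48 to -1.83 and A_52_P555672 from -2.28 to -1.64, and both were called in all 12 and in all 8 fits that left out 1 array. Among these 12, the filter changes, the lower floor, the value table, kept outlier spots and the replicate block left every tested member's difference unchanged. Only the other scalings, the normexp correction and the array weights moved a member's difference. Set against the brightest probe of each other member within the same array, A_51_P102339 changed by -1.698 (Atf2), -1.71 (Coil), -1.72 (Vrk3), -1.73 (Vrk2) and -1.99 (Banf1) log2 units. Each of these 5 contrasts had no overlap between the groups (exact two-sided permutation test, p = 0.0286, which is the lowest value possible for 4 arrays against 4; adjusted p = 0.0429 over the 12 contrasts).

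Vrk2, the gene of the membrane-anchored relative, was lower in the mutant, by far less than Vrk1. Probe A_52_P200350 had wild-type levels of -1.65, -1.28, -1.34 and -1.03 and mutant levels of -2.12, -1.69, -1.74 and -1.86. All 4 mutant arrays lay below all 4 wild-type arrays, though mutant replicate 2 and wild-type replicate 1 were only just apart. The log2 difference was -0.53 (SE 0.17, limma adjusted p = 0.0387), or 69.4% of the wild-type level (95% interval 53.5% to 89.99%). Its call held in all 12 other ways of processing but in only 2 of the 8 fits without 1 array, those without wild-type replicate 1 or mutant replicate 2, with adjusted p from 0.0186 to 0.0985.

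The Fancl probe that covers the same bases on the opposite strand, A_51_P127928, was looked at because of that overlap. Fancl encodes the ubiquitin ligase of the Fanconi anaemia core complex. It went from -0.11 ± 0.08 to -0.51 ± 0.19 (SD, n = 4 each), a log2 difference of -0.41 (SE 0.14, limma adjusted p = 0.0472) with no overlap. Both probes of this overlapping pair were thus lower in the mutant. Whether either takes up signal from the other strand was not tested.

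Vrk3, the pseudokinase gene, was lower on every mutant array. Its levels with probe A_51_P387188 (chr7:40951795-40951854, plus strand) were 4.16, 4.17, 4.15 and 4.38 in wild type and 3.61, 3.84, 3.72 and 3.55 in the mutant. Wild-type replicate 4 lay above the other wild-type arrays, and the groups did not overlap. The log2 difference was -0.54 (SE 0.13, limma adjusted p = 0.0151), or 69.0% of the wild-type level. It was called in 9 of the 12 other ways of processing and in all 8 fits without 1 array; the 3 that ended the call were quantile normalization (-0.22), cyclic loess (-0.19) and normexp background correction (-0.41).

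The substrate genes gave a mixed picture, in which Coil and 1 probe of Atf2 fell and Banf1 did not pass the test. Banf1, with probe A_51_P314019, had wild-type levels of 2.30, 2.32, 2.23 and 2.36 and mutant levels of 1.80, 2.12, 2.33 and 1.91. The wild-type arrays were close together, while the mutant arrays were spread out and mutant replicate 3 lay within the wild-type range. The log2 difference of -0.27 (SE 0.15, 95% interval -0.59 to 0.06) had a limma adjusted p of 0.182, and the interval holds both no change and a fall to 66.3% of the wild-type level. It ranged from -0.04 with cyclic loess and -0.08 with quantile normalization to -0.48 with median scaling, where alone it was called.

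Coil was lower in the mutant, with overlap between the groups. Probe A_51_P483839 (chr11:89100459-89100518, plus strand) had wild-type levels of 5.93, 5.95, 5.88 and 5.72 and mutant levels of 5.30, 5.76, 5.32 and 4.92. Mutant replicate 2 lay above wild-type replicate 4, and the other mutant arrays lay below all wild-type arrays. The log2 difference was -0.55 (SE 0.18, limma adjusted p = 0.0431), and the two-sided exact permutation p was 0.0571. The call held in only 2 of the 8 fits without 1 array, those without wild-type replicate 4 or mutant replicate 2, and quantile normalization (-0.16) and cyclic loess (-0.10) also ended it.

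The 4 tested probes of Atf2 did not all give the same call. Atf2 probes lie on the minus strand, so the transcript runs from high to low coordinates, and the tested probes are given in that order. The most upstream, A_52_P116253, had wild-type levels of -2.66, -2.56, -2.35 and -1.65 and mutant levels of -3.00, -2.51, -2.76 and -1.85, with replicate 4 highest in both groups. The groups overlapped, and the difference did not pass the test (-0.22, SE 0.29, limma adjusted p = 0.558). Single arrays moved it: leaving out wild-type replicate 4 gave -0.0054, mutant replicate 1 gave -0.07 and mutant replicate 4 gave -0.45, none of which was called.

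The next Atf2 probe, A_52_P130596, 17697 bases downstream, was the only Atf2 probe called lower. Its levels were 0.08, -0.01, -0.08 and 0.19 in wild type and -0.63, -0.38, -0.60 and -0.45 in the mutant, with no overlap. The log2 difference was -0.56 (SE 0.13, limma adjusted p = 0.0125), or 67.8% of the wild-type level (95% interval 55.5% to 82.9%). It was called in all 12 other ways of processing and in all 8 fits without 1 array, and had a difference of -0.54, not called, without mutant replicates 1 and 4.

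A further 10760 bases downstream, A_52_P272547 (chr2:73661372-73661431) had levels of -0.97, -0.85, -0.75 and -0.65 in wild type and -0.70, -0.54, -0.41 and -0.49 in the mutant. Of the mutant arrays, 3 lay above all wild-type arrays, but the difference of 0.27 (SE 0.13, limma adjusted p = 0.142) did not pass the test. It was 0.05 with median scaling and with normexp background correction, and 0.31, called, with array weights. The last probe, A_51_P388872 (chr2:73661070-73661129), lies 242 bases beyond it. With -2.93, -2.88, -2.59 and -2.58 in wild type and -2.95, -2.73, -2.53 and -2.54 in the mutant, the groups overlapped (0.05, SE 0.15, adjusted p = 0.801), and its difference was below 0 under every other scaling and with normexp background correction, from -0.20 to -0.10.

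Setting the Atf2 probes against each other within each array removes any factor that scales a whole array. It does not remove a shift that depends on signal level. The median difference of probes within 0.5 log2 units in level was -0.09 around A_52_P130596 and -0.03 around A_52_P272547. It was 0.20 around A_51_P388872 and 0.16 around A_52_P116253. The part of that shift in these contrasts was not tested. A_52_P130596 minus A_52_P272547 was 1.05, 0.83, 0.67 and 0.84 on the wild-type arrays and 0.06, 0.16, -0.19 and 0.05 on the mutant arrays. The groups were well apart, and the change of -0.83 (SE 0.11) had a two-sided exact permutation p of 0.0286 (adjusted p = 0.0429 over 12 contrasts). It was -0.79 with quantile normalization and -0.70 with normexp background correction, both without overlap. The change of A_52_P130596 against A_51_P388872 was -0.61 (exact permutation p = 0.0286, adjusted p = 0.0429), and it came to -0.39 and -0.45 with overlap (exact permutation p = 0.0571) under the same alternatives. Even the neighbouring downstream probes changed unequally, with A_51_P388872 minus A_52_P272547 going from -1.94 ± 0.08 to -2.15 ± 0.09 (SD, n = 4 each; change -0.21, exact permutation p = 0.0286, adjusted p = 0.0429). Contrasts with the most upstream probe, A_52_P116253, overlapped and did not pass. It changed by 0.34 against A_52_P130596 (exact permutation p = 0.286, adjusted p = 0.312) and by -0.49 against A_52_P272547 (exact permutation p = 0.143, adjusted p = 0.171). A_51_P388872 changed by 0.28 against it (exact permutation p = 0.314, adjusted p = 0.314). The 12 contrasts include those of Vrk1 against the other members, which all had the lowest possible p. The adjusted p of 0.0429 for the Atf2 contrasts rests on including them. Change without overlap was thus seen among the downstream probes only, and which transcripts each probe reads was not tested.

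**Figure D2:**
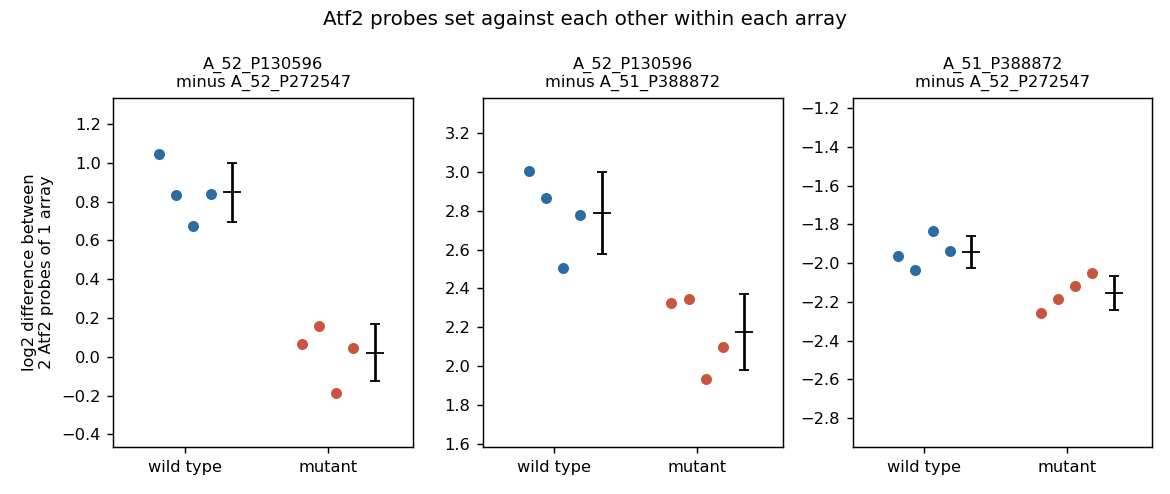
Each panel plots, for each of the 4 wild-type (blue) and 4 mutant (red) arrays, the log2 signal of 1 Atf2 probe minus that of another on the same array, with the mean and SD of each group beside the points; every vertical axis covers the same log2 range. In the left panel the wild-type arrays lie between 0.67 and 1.05 and the mutant arrays between -0.19 and 0.16, and the groups are also apart in the other panels.

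Across the whole array the difference depended on signal level, and this bears on the members as a measured fact. The median difference of probes within 0.5 log2 units of Coil's mean level was -0.45, and it was -0.42 around Vrk3 and -0.30 around Banf1. Set beside these, the members' own differences of -0.55, -0.54 and -0.27 lay inside the middle 80% of probes of like signal. The falls of Vrk2 (-0.53 against a median of 0.06 and a 10th percentile of -0.47) and Atf2 A_52_P130596 (-0.56 against -0.09 and -0.54) were just below that range. Both Vrk1 probes were far below it, at -2.26 and -2.06 against 10th percentiles of -0.46 and -0.43.

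**Figure D3:**
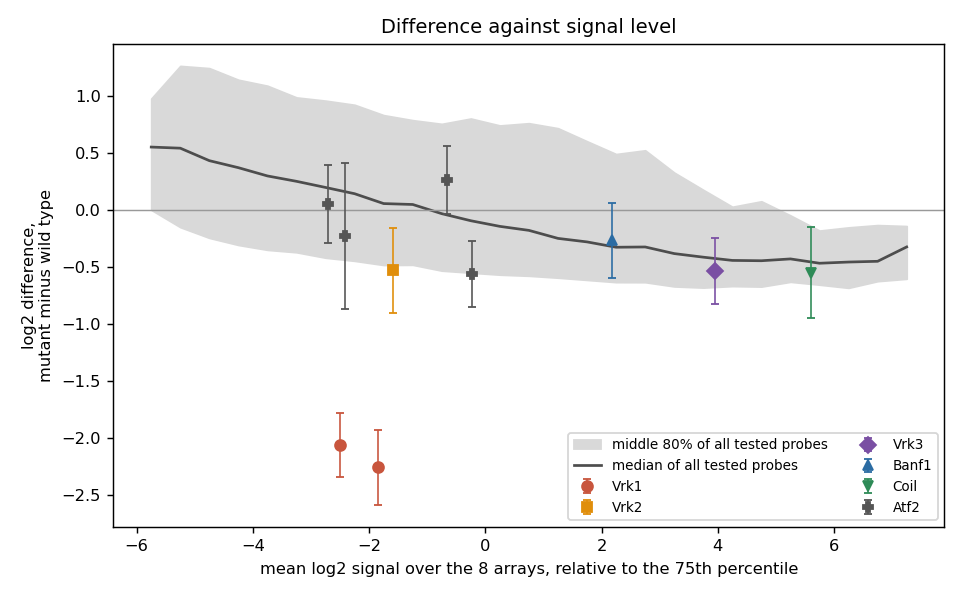
The horizontal axis is the mean log2 signal over the 8 arrays and the vertical axis the log2 difference, mutant minus wild type; the line and the grey band give the median and the middle 80% of all 33718 tested probes, and each marker is a member probe with its 95% interval. The median declines from low to high signal, Vrk3, Banf1 and Coil lie near it, and the 2 Vrk1 probes lie far under the band.

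Over the 8 arrays, the patterns most like that of Vrk1 A_51_P102339 among probes of other named genes were those of V1rj2 (Pearson r = 0.998), Fntb (0.990) and Olfr1507 (0.989). With this Vrk1 probe the genotypes lay far apart, so r over the 8 arrays largely restates a probe's genotype difference relative to its spread. V1rj2 and Olfr1507 encode chemosensory receptors and Fntb the beta subunit of protein farnesyltransferase. Their differences of -0.94, -0.92 and -0.96 were smaller than that of Vrk1. The second Vrk1 probe had r = 0.997, and 178 of the 33718 tested probes had r above 0.95. Among the members, r to A_51_P102339 was 0.95 for Atf2 A_52_P130596, 0.93 for Vrk3, 0.85 for Vrk2, 0.73 for Coil and 0.67 for Banf1. It was 0.38 for Atf2 A_52_P116253, -0.05 for Atf2 A_51_P388872 and -0.70 for Atf2 A_52_P272547.

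The genes around the members were taken as 6 lists with 65 genes in all, each gene represented by its tested probe with the highest mean level. Of the 63 tested, 8 were lower and 8 higher in the mutant, or 12.7% in each direction, beside the 10.8% lower and 21.2% higher among all tested probes. Their median difference was -0.17, beside 0.05 for all tested probes, which are not matched to them in signal level. Over all tested probes the median fell from 0.56 around a level of -5.75 to -0.44 around 4.25. The median of probes within 0.5 log2 units of a called gene ran from -0.45 (Ran) to -0.17 (Trp53) for genes called lower. For genes called higher it ran from -0.34 (Nhp2) to 0.36 (Dkc1). The counts of called list genes rested on the scaling: they were 26 lower and 1 higher with the median, and 1 lower and 6 higher with cyclic loess. Without mutant replicates 1 and 4, 0 genes of the lists passed in either direction. Where a gene had further tested probes, those that were called are given below, since they did not always follow the probe that stands for the gene.

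Of 8 relatives of the Vrk kinases in the casein kinase 1 group, 1 was higher and none lower, with a median of -0.16, and with median scaling 3 were lower and none higher. Csnk1g3, a membrane-bound casein kinase 1 isoform, rose by 0.60 (SE 0.15, limma adjusted p = 0.0180) with no overlap, while its other probe gave 0.12 (adjusted p = 0.722). It was called in 6 of the 8 fits without 1 array and in 10 of the 12 other ways of processing. Ttbk1, a tau tubulin kinase, had a difference of -0.46 that did not pass (adjusted p = 0.0814). Of 13 further probes of these genes, 3 were lower and 1 higher. Those of Csnk1a1, whose own difference of -0.40 was not called, were at -0.52 (adjusted p = 0.0163) and 0.41 (adjusted p = 0.0333). Csnk1d had one at -0.49 (adjusted p = 0.0222), against 0.27 with its first probe (adjusted p = 0.203). No direction is given for either gene. Csnk1g1 had one at -0.58 (adjusted p = 0.00879), with -0.11 for its first probe (adjusted p = 0.633).

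Among 13 genes whose products bind BAF or act with it at the nuclear envelope, 2 were lower and none higher, with a median of -0.31. Ankle2, a LEM-domain protein that helps to restrain VRK1 and to recruit phosphatase to BAF at mitotic exit, fell by 0.62 on the log2 scale (SE 0.17, limma adjusted p = 0.0235), from 1.15 ± 0.31 to 0.53 ± 0.12 (SD, n = 4 each). Lmnb2, which encodes a B-type lamin, fell by 0.60 log2 units (adjusted p = 0.0466) with overlap. The second probes of these genes, at -0.27 and -0.38, were not called (adjusted p = 0.224 and 0.195). The call held in 5 of the 8 fits without 1 array for Ankle2 and in 3 of the 8 for Lmnb2, which also lost it in 5 of the 12 other ways of processing. Ppp4c, a phosphatase subunit gene, was at -0.40 without passing (adjusted p = 0.0525), and its second probe, also at -0.40, passed (adjusted p = 0.0378). Ppp2r1a, the scaffold subunit of protein phosphatase PP2A, had the largest absolute difference of the list, 0.71, and did not pass (adjusted p = 0.0979).

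The 14 Cajal body and small nuclear RNP genes moved both ways, with 3 higher, 1 lower and a median of -0.10. Tgs1, the enzyme that trimethylates the cap of small nuclear RNAs, rose by 0.60 (SE 0.15, limma adjusted p = 0.0163), and another of its probes by 0.57 (adjusted p = 0.0196), while the remaining probes, at 0.19 and 0.20, were not called. Dkc1, the pseudouridine synthase of H/ACA particles, rose by 0.57 (adjusted p = 0.0195) and by 1.12 with its other probe (adjusted p = 0.00315), but the first of these was -0.18 with normexp background correction and lost its call under all 4 other scalings. Nhp2, another H/ACA protein, rose by 0.46 (adjusted p = 0.0199). Tgs1 and Nhp2 were each called in 10 of the 12 other ways of processing and 7 of the 8 fits without 1 array. Both lost their call with median scaling, Tgs1 also with normexp and Nhp2 also when scaled to spike-ins. Gemin5, the subunit of the SMN complex that recognises small nuclear RNAs, fell by 0.47 log2 units (adjusted p = 0.0304) with 1 probe and was at -0.34 with the other (adjusted p = 0.145), and its call held in 3 of the 8 fits without 1 array. Gemin4 had the largest absolute difference of the list, -0.61, without passing (adjusted p = 0.0810). Nhp2 and Gemin5 were named after their values were seen, as were the genes below that complete a list's count.

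Of 14 genes for kinases, dimer partners and relatives of ATF2, 12 were tested (not Creb5 or Fos), of which 3 were higher and 1 lower, with a median of 0.14. Mapk14, the p38 kinase that phosphorylates ATF2, rose by 0.66 (SE 0.13, limma adjusted p = 0.00678), from 0.04 ± 0.04 to 0.70 ± 0.17 (SD, n = 4 each). Jdp2, a repressor that dimerises with ATF2, rose by 0.63 (adjusted p = 0.0238), and Atf7, a close relative of Atf2, by 0.38 (adjusted p = 0.0366) and by 0.87 with its other probe (adjusted p = 0.0163). Mapk14 was called in all 12 other ways of processing and all 8 fits without 1 array, Jdp2 in 7 and 4 of them, and Atf7 in 7 and 1. Crem, a germ cell transcription factor that also serves here as a round spermatid marker, fell by 0.57 log2 units (adjusted p = 0.0163), with a further probe at -0.60 (adjusted p = 0.0284). The remaining Crem probes, at -0.35, -0.24, -0.20 and -0.30, were not called (limma adjusted p from 0.119 to 0.319). Crem was called in 9 of the 12 other ways of processing, not with quantile normalization, cyclic loess or normexp, and in 7 of the 8 fits without 1 array. The median difference of probes within 0.5 log2 units of its level was -0.43. Of the 10 round spermatid markers, Crem included, 4 were lower and none higher, with summed relative levels of 198 to 270 in the mutant and 277 to 332 in wild type. The part of this shift in the value of Crem was not tested.

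Other reported substrates of VRK1 had 3 genes lower and 1 higher of 9, with a median of -0.36. Trp53, which encodes p53, fell by 0.54 on the log2 scale (SE 0.13, limma adjusted p = 0.0139) with its brighter probe and rose by 0.59 with the other (adjusted p = 0.0412), so no direction is given for the gene. Trp53bp1, which encodes the repair scaffold 53BP1, fell by 0.47 log2 units (adjusted p = 0.0192), and Nbn, of the MRN repair complex, fell by 0.56 log2 units (adjusted p = 0.0208). Their second probes, at -0.22 and -0.30, were not called (adjusted p = 0.426 and 0.265), and both genes lost their call with quantile normalization, cyclic loess and normexp. Hnrnpa1, an RNA-binding protein gene, rose by 0.64 (adjusted p = 0.0227) with 1 probe and was at 0.01 and 0.09 with its others. It lost its call when scaled to the median or to spike-ins. Of the 8 fits without 1 array, the call held in 5 for Hnrnpa1, 5 for Trp53bp1 and 6 for Nbn.

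Among 9 genes for proteins that regulate or bind the VRK kinases, 1 was lower and none higher, with a median of -0.34. Ran, the nuclear transport GTPase that binds VRK1, fell by 0.46 on the log2 scale (SE 0.15, limma adjusted p = 0.0410), from 6.84 ± 0.17 to 6.38 ± 0.19 (SD, n = 4 each). The median difference of probes within 0.5 log2 units of its level was -0.45, and the call held in only 2 of the 8 fits without 1 array, those without wild-type replicate 1 or mutant replicate 2. It was also lost with quantile normalization, normexp and cyclic loess, and the last of these gave 0.05. Usp25, a deubiquitinase, had a difference of -0.54 that did not pass (adjusted p = 0.0515). Dusp3, the phosphatase that VRK3 binds, was at 0.29 (adjusted p = 0.338). Further probes of 2 genes were called against their first: Cct4, a chaperonin subunit gene, was at -0.31 (adjusted p = 0.136) and 0.98 (adjusted p = 0.0191), and H2afy, the gene of a variant histone, at -0.34 (adjusted p = 0.219), 0.88 (adjusted p = 0.00469) and -0.53 (adjusted p = 0.0231), so no direction is given for either.

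**Figure D4:**
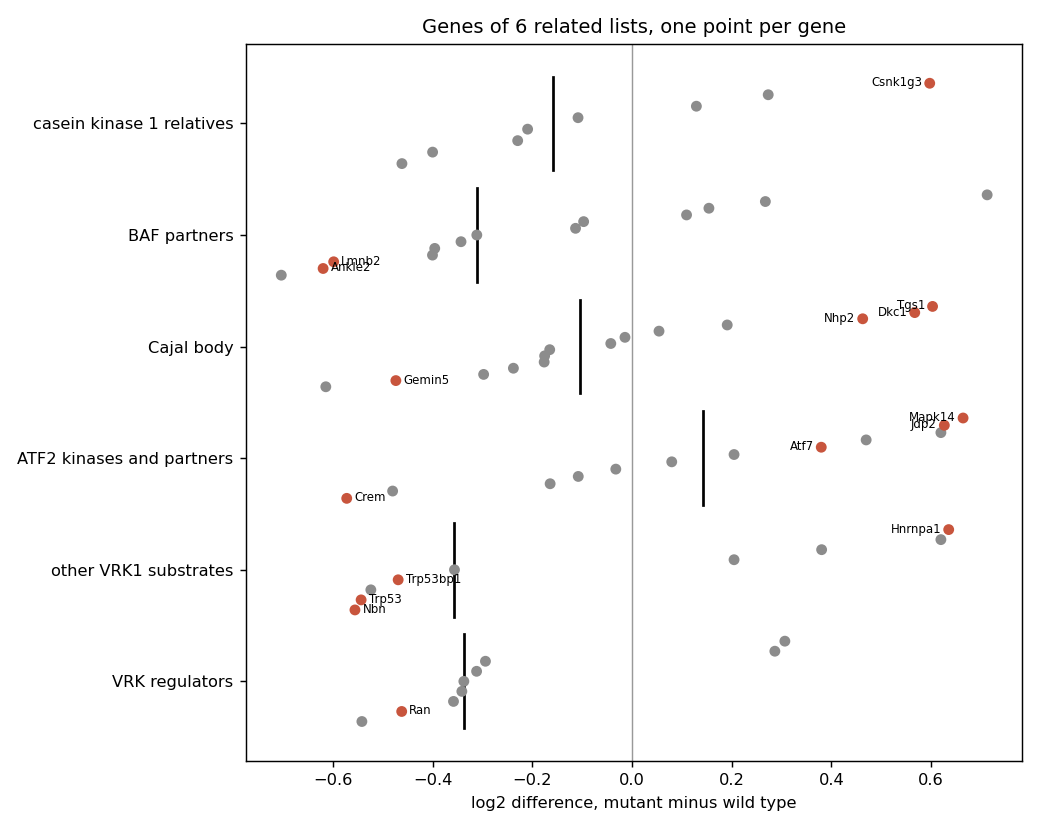
Each point is 1 gene of the 6 lists, placed by its log2 difference, mutant minus wild type; red points passed the test at a limma adjusted p under 0.05 and carry their name, grey points did not, and the black bar is the median of the list. The medians run from -0.36 for the other VRK1 substrates to 0.14 for the ATF2 kinases and partners, and every list holds points on both sides of 0.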

How the data were processed

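The deposited intensity values were the processed signal of 8 single-colour arrays, extracted with Agilent Feature Extraction 9.5.3.1 per the submitters' processing notes, background-subtracted and detrended within the array but not scaled between arrays, per the file headers. The deposited mean and local background intensity served 1 alternative, and the series' deposited value table was the same processed signal, linear and uncentred. Per the labels' protocols, RNA was extracted with Trizol and labelled with Cy3. Samples were grouped by genotype from the labels.

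On each array, processed signals were scaled by the 75th percentile of the non-control features, floored at 0.01437 of that percentile (since signals could be negative) and converted to log2. Outlier spots were left out and repeated spots averaged. The test took probes that exceeded background clearly on 4 or more of the 8 arrays and had 3 values per group, using limma 3.58.1 (R 4.3.3) with lmFit and eBayes, genotype as the sole term and two-sided p-values, followed by Benjamini-Hochberg adjustment over all 33718 tested probes and a threshold of 0.05. The procedure was tested on simulated data. Single contrasts used an exact permutation test over 70 arrangements. Alternatives changed the scaling, background, filter, floor, array weights, block and arrays used.

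The members and gene lists were chosen with earlier results of these data known, and are no independent evidence. All members were named, with the 2 genes of smallest p and the largest absolute difference in each list, and the 3 probes most like Vrk1. Cell type marker lists also covered undifferentiated spermatogonia (3 of 9 tested higher, none lower), differentiating spermatogonia (2 of 5 higher, 1 lower), elongating spermatids (1 of 10 lower, none higher), Leydig cells (3 of 7 higher, none lower), peritubular and endothelial cells (2 of 9 higher, none lower), macrophages (5 of 8 higher, none lower) and epididymis (3 of 4 higher, none lower). Zbtb16 and Sohlh1 had no matched probe. The number of arrays limits the precision. Genome sequence, exon annotation and protein sequence were not used here.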

Additional observations from a re-analysis of the deposited data

Results flagged for a closer look

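Among the 20 groups of 4 arrays formed by the 10 tested member probes, 2 held an array whose gap to its nearest neighbour, divided by the group's range, was above Dixon's 95% critical value for 4 samples. Chance flags about 1 in 20 groups. With Vrk1 A_52_P555672, mutant replicate 1 was at a log2 level of -3.73, below the other mutant arrays, with a ratio of 0.832. Without it the probe still passed the test (limma adjusted p = 0.00112). With Vrk3 A_51_P387188, wild-type replicate 4 was at 4.38, above the other wild-type arrays, with a ratio of 0.914. Without it the difference was -0.48 and still passed the test (limma adjusted p = 0.0247), against -0.54 with all arrays.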

How the results depend on the processing

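Both Vrk1 probes and Atf2 A_52_P130596 kept their direction and their call under all 12 other ways of processing and in all 8 fits without 1 array, and of these 3 only the Vrk1 probes kept it without mutant replicates 1 and 4. The member count of 6 lower ran from 4 to 7 over the settings and 4 to 6 without 1 array, and was 2 without mutant replicates 1 and 4, and the count of 0 higher became 1 with array weights (Atf2 A_52_P272547, 0.31). Banf1 was called only with median scaling (-0.48; -0.04 with cyclic loess), and Coil was not called with normexp (-0.40) or without the filter on dim probes (-0.55). Atf2 A_51_P388872 changed sign, without being called, to -0.16 with median scaling, -0.18 with quantile normalization, -0.17 with cyclic loess, -0.10 with E1A spike-ins, -0.20 with normexp and -0.0068 without wild-type replicate 1, in a range of -0.0068 to 0.14 over the fits without 1 array. Scaling and background moved the median of all probes from 0.05 to -0.17 (median), -0.06 (quantile), -0.0048 (loess), -0.10 (spike-ins) and -0.23 (normexp), and the calls from 3655 lower and 7160 higher to 8768 and 4491, 3385 and 4405, 2725 and 5166, 5784 and 4751, and 3097 and 2092. The 8 lower list genes became 26, 2, 1, 16 and 5 under these, and 20 with array weights, and the 8 higher became 1 with the median, 2 with spike-ins and 4 with normexp. Without 1 array they were 2 to 12 lower and 2 to 8 higher, and 0 each without mutant replicates 1 and 4. The cause of these changes was not tested. Same-numbered arrays, which held the same position on their slides, correlated at 0.0903 to 0.6093 in their deviations from the group means, and 7 of 8 correlated best with their own number, a hint from the data only. With the replicate block, the members lower stayed at 6, the list genes lower came to 17 and the probes called to 5913 lower and 9242 higher.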
